A study of Mus musculus with 10 samples.

Results

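The mRNAs of 59 nuclear genes for subunits of respiratory chain complexes I to IV were examined in interscapular brown adipose tissue (iBAT) of mice with and without matrix Gla protein. The genes were taken by name from the 27267 genes of the deposited table, without the use of any measured value, and comprise 33 subunits of complex I, 4 of complex II, 9 of complex III and 13 of complex IV. All 59 passed the filter on low values, a mean of at least 10 normalized counts over the 10 libraries, which left 13714 genes for testing. *Ndufa4*, which carries a complex I name but is now placed with complex IV, was kept with complex I as its name lists it.

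RNA was sequenced from iBAT of 5 mice labelled wild type (WT) and 5 labelled *Mgp*-KO, all described as C57BL/6 males of 4 weeks on a chow diet. *Mgp* encodes matrix Gla protein, a secreted inhibitor of bone morphogenetic proteins, and the knock-out is global, so that the gene is lost from every tissue and not from adipocytes alone. Each library comes from whole tissue, in which fewer cells of a type and less RNA per cell cannot be told apart. Replicates 1 to 3 and replicates 4 and 5 of both genotypes were compared separately as well as together, and are called the 2 sets below, although the labels name no batch.

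The respiratory chain passes electrons from NADH through complex I, or from succinate through complex II, to ubiquinone, then through complex III and cytochrome c to complex IV, which reduces oxygen. Complexes I, III and IV pump protons across the inner mitochondrial membrane, and in brown adipocytes UCP1 lets these protons return without ATP synthesis, which releases heat. Some complex IV subunits exist as a widely expressed form and a form of contractile tissue, and brown fat shares some of the latter with heart and muscle.

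The libraries held between 9253793 and 22252260 reads on genes, with 19616366 to 22252260 in replicates 1 to 3 and 9253793 to 13281873 in replicates 4 and 5. Mitochondrial rRNA took 0.771% to 1.72% of the reads in the former set and 6.50% to 16.7% in the latter. *Ucp1*, the uncoupling protein that defines brown adipocytes, was present in every library, from 2201 to 116019 normalized counts. The deleted gene itself was counted with 0, 1 and 1 reads in *Mgp*-KO 1 to 3. It had 309 and 282 reads in *Mgp*-KO 4 and 5, against 485 to 805 reads in WT. In normalized counts, which allow for depth, it was at 500 and 331 in *Mgp*-KO 4 and 5 and at 466 to 1146 in WT. *Mgp*-KO 4 thus lay within the range of the 5 WT libraries. Both *Mgp*-KO 4 and 5 were below the WT libraries of their own set, WT 4 at 1146 and WT 5 at 839. The *Mgp* reads in *Mgp*-KO 4 and 5 still go against their label. In WT 2 the *Xist* level was 5094 normalized counts and 4 Y chromosome genes summed to 3.74, against the male label. The labels were kept, and the results are also given without these libraries.

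No difference between genotypes was called for any subunit mRNA. With a term for the set in the model (limma on log2 of the normalized count plus 1, 5 libraries against 5), 0 of the 59 genes passed an adjusted p of 0.05 in either direction, where 2.36% of all tested genes did (324). No subunit reached an unadjusted p under 0.05 in this fit either, where 19.3% of all tested genes did (2651). With edgeR 0 subunits did (20.1% of all tested genes) and with DESeq2 1 did (22.2%), and those tools also made 0 calls among the 59 at the adjusted threshold, beside 2.49% and 8.06% of all tested genes. The median log2 fold change (*Mgp*-KO against WT) over the 59 genes was -0.17, beside 0.03 over all tested genes, and 46 of the 59 values were below 0 (78.0%, beside 47.3% of all tested genes). The 95% confidence interval lay within a 2-fold change in both directions for 50 of the 59 genes and within a 1.5-fold change for 26. Changes of 2-fold or more are thus outside the interval for most subunits. Changes of 1.5-fold are outside it in both directions for these 26 only. The set term was kept as the reference below because the sets differed widely, as described further on.

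Without the set term, 0 of the 59 subunits and 0.0656% of all genes (9) were called. At an unadjusted p under 0.05 there were again 0 subunits with limma, beside 1421 of the 13714 tested genes. The subunit count at that p was 0 with edgeR and 1 with DESeq2. In replicates 1 to 3 alone, where the labels and the *Mgp* reads go together, 0 of 59 were called beside 3.54% of all genes (486). There 0 subunits had an unadjusted p under 0.05 with limma, edgeR or DESeq2, beside 22% of all tested genes with limma (3016). The median over the subunits was -0.05. The intervals were narrowest there and lay within a 2-fold change for 57 of the 59 genes and within a 1.5-fold change for 48. In replicates 4 and 5, 0 of 59 were called, but 0% of all genes were called as well, although 855 had an unadjusted p under 0.05, and the interval stayed within a 2-fold change for 1 subunit only. The median was -0.38 in this set. The difference between the 2 sets in the genotype effect was called for 0 of 59 subunits and for 0.00729% of all genes (1). At an unadjusted p under 0.05 there were 0 subunits, beside 1419 of the 13714 tested genes, in limma, the tool it was run with. The lowest adjusted p among the subunits was 0.483, for *Sdha* (limma).

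**Figure D1:**
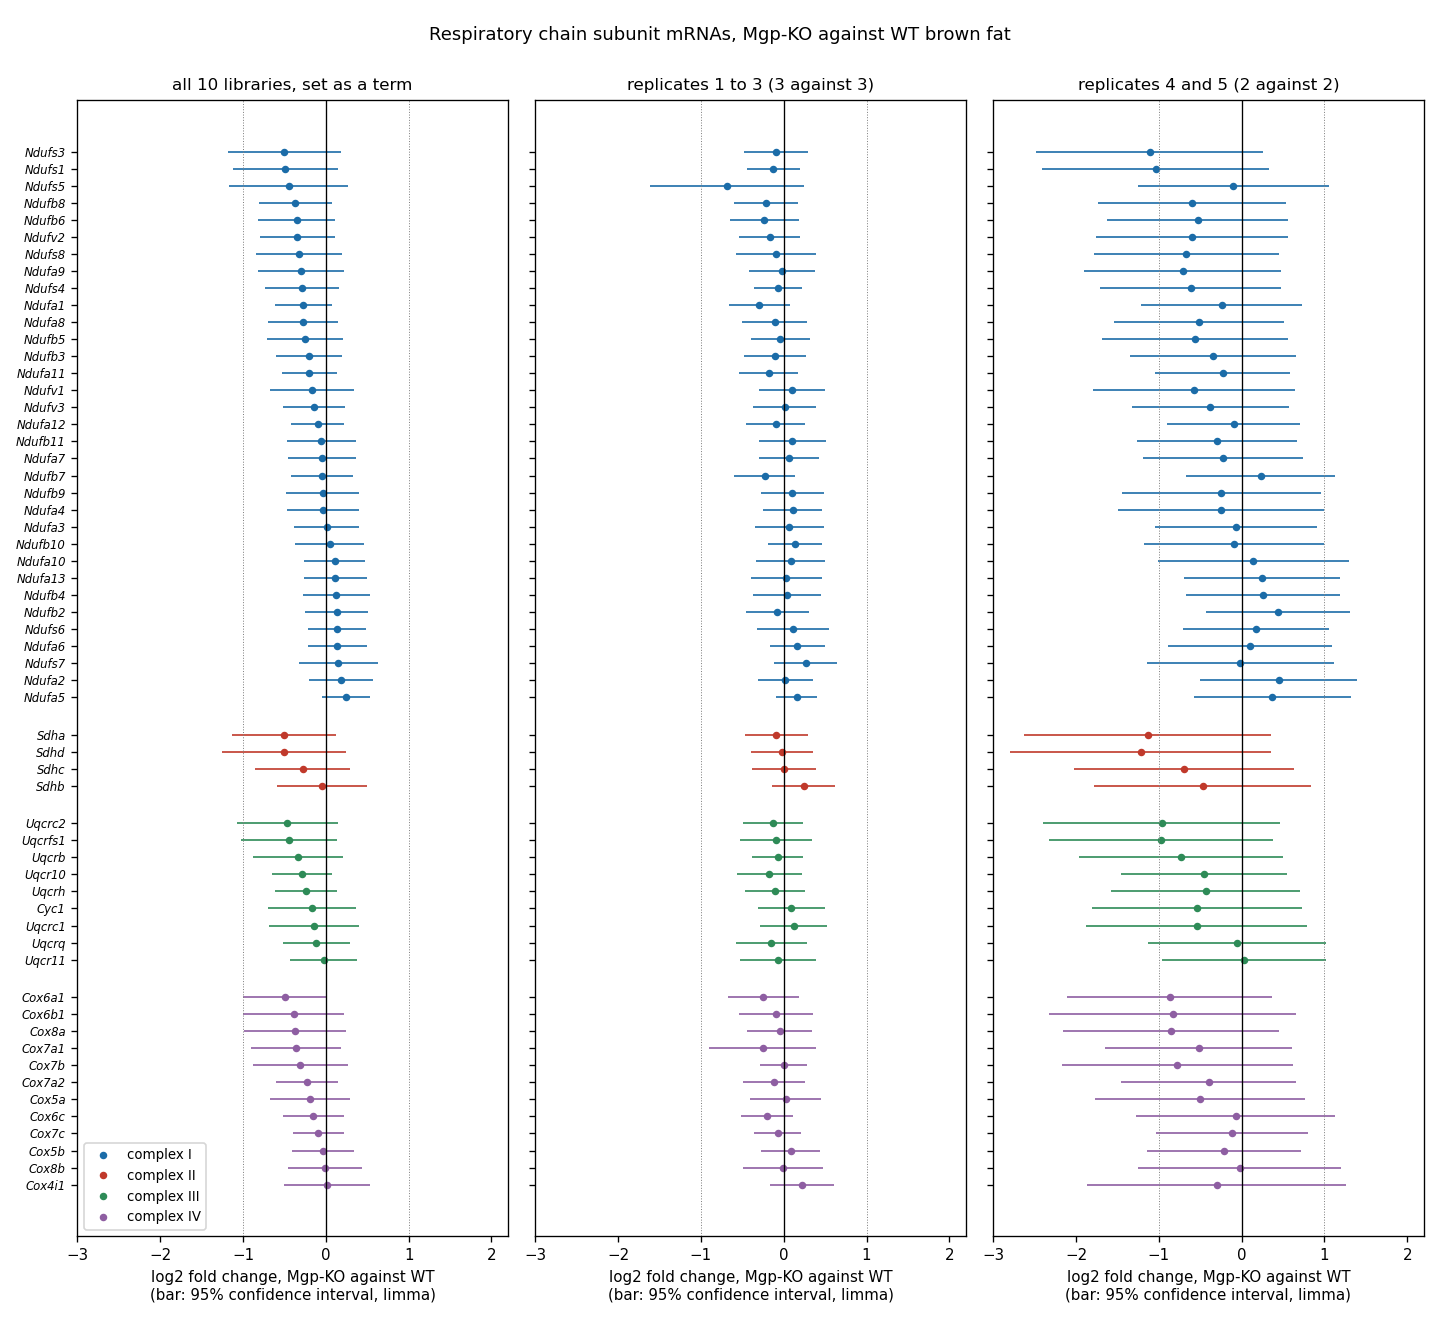
Log2 fold change of each subunit mRNA in *Mgp*-KO against WT iBAT (point) with its 95% confidence interval (bar), in all 10 libraries with a set term, in replicates 1 to 3 and in replicates 4 and 5, with dotted lines at a 2-fold change. The intervals cross 0 for all 58 genes drawn (*Cox6a2*, with far wider intervals, is not drawn), and they are about as narrow in replicates 1 to 3 as with the set term but much wider in replicates 4 and 5.

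*Ucp1* moved apart from the chain. It was at 38421, 41322, 46191, 62428 and 116019 normalized counts in WT 1 to 5 and at 8939, 2201, 11904, 12319 and 15641 in *Mgp*-KO 1 to 5. The genotypes did not overlap, and the log2 fold change was -2.70 ± 0.40 (SE, n = 5 and 5, adjusted p = 0.013, limma with the set term), although the adjusted p was 0.060 without that term. Of 16 brown adipocyte markers, 4 fell and 0 rose in the fit with the set term, and edgeR and DESeq2 called the same 4 lower and *Lhx8*, a transcription factor, higher. These were *Ucp1*, *Elovl3* (a fatty acid elongase, -3.64, adjusted p = 0.010), *Dio2* (the deiodinase that activates thyroid hormone, -3.35, adjusted p = 0.023) and *Otop1* (a proton channel, -2.09, adjusted p = 0.017). In replicates 1 to 3 *Ucp1* fell by 2.76 (adjusted p = 0.045) and *Lhx8* rose by 1.51 (adjusted p = 0.024). With the set term and without WT 2, *Ucp1* fell by 2.70 (adjusted p = 0.042).

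Complex I, the NADH dehydrogenase, had a median log2 fold change of -0.10 with the set term, and 22 of its 33 subunits were below 0. With 1 library left out this median ran from -0.16 (without *Mgp*-KO 1 or *Mgp*-KO 5) to -0.03 (without WT 3 or *Mgp*-KO 4), with 17 to 24 below 0, and it was -0.05 without WT 4 or *Mgp*-KO 2. *Ndufs3*, a core subunit of the ubiquinone-reducing module, had its most negative value, -0.50 ± 0.31 (SE, adjusted p = 0.396), with 3212, 3459, 4175, 2067 and 2540 normalized counts in WT 1 to 5 and 3951, 2775, 3471, 576 and 1951 in *Mgp*-KO 1 to 5. Within replicates 1 to 3 these values overlap, and the low value is that of *Mgp*-KO 4. *Ndufs1*, which carries iron-sulfur clusters of the electron path, was at -0.49 ± 0.29 (adjusted p = 0.369), with 9493, 10254, 10264, 5862 and 10694 in WT and 10277, 7910, 9451, 2378 and 6246 in *Mgp*-KO. *Ndufv1*, which binds NADH and FMN, was at 12792, 12507, 15286, 15053 and 13861 in WT and at 17700, 12386, 13792, 6860 and 13709 in *Mgp*-KO (-0.17 ± 0.23, adjusted p = 0.713). In each of these genes *Mgp*-KO 1 was within or above the WT range and *Mgp*-KO 4 was the lowest of the 10 libraries.

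*Ndufa5*, an accessory subunit of the ubiquinone-reducing module, had the most positive value of complex I, 0.24 ± 0.13 (SE, adjusted p = 0.339). It was at 2387, 2324, 2443, 6955 and 5134 normalized counts in WT and at 2884, 2484, 2624, 7542 and 7940 in *Mgp*-KO. It was the 1 subunit of 59 whose genotypes did not overlap in replicates 1 to 3, with every *Mgp*-KO value above every WT value, where 30.6% of all tested genes did not overlap (4193). Over all 10 libraries the genotypes overlapped for every subunit (0 of 59 apart, beside 3.5% of all tested genes, 480). *Ndufb8*, a subunit of the distal membrane arm often used to follow complex I, was at -0.37 ± 0.20 (adjusted p = 0.341), and *Ndufa1*, of the proximal arm, at -0.27 ± 0.16 (adjusted p = 0.361). *Ndufs5* was at -0.45, *Ndufv2* at -0.34, *Ndufb6* at -0.35, *Ndufb7* at -0.05 and *Ndufs7* at 0.15, with adjusted p-values of 0.382 to 0.903. By module, the median was -0.20 in the 7 subunits of the proximal membrane arm, -0.16 in the 8 of the NADH-oxidizing module, -0.05 in the 7 of the ubiquinone-reducing module and -0.05 in the 10 of the distal membrane arm.

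All 4 subunits of complex II, succinate dehydrogenase, had negative log2 fold changes with the set term, with a median of -0.39 and 0 calls. Without *Mgp*-KO 4 the median was -0.05 with 2 of 4 below 0, and without WT 4 it was -0.31 with 3 of 4 below 0. *Sdha*, the flavoprotein that oxidizes succinate, was at 34054, 36277, 40121, 26316 and 40402 normalized counts in WT and at 39325, 30939, 33974, 10101 and 21792 in *Mgp*-KO (-0.51 ± 0.29, SE, adjusted p = 0.354). *Sdhb*, the iron-sulfur subunit, was at 11277, 11181, 14227, 16828 and 13906 in WT and at 16665, 12597, 14053, 7401 and 16459 in *Mgp*-KO (-0.04 ± 0.25, adjusted p = 0.933). In replicates 1 to 3 the genotypes overlapped for both, and the complex II median was -0.01. It was -0.92 in replicates 4 and 5.

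Complex III, which oxidizes ubiquinol and reduces cytochrome c, had a median of -0.24 with the set term, with all 9 subunits below 0 and 0 called. Without *Mgp*-KO 4 the median was -0.13 with 7 of 9 below 0, and 8 were below 0 without WT 3, WT 4 or *Mgp*-KO 2. *Uqcrc2*, a core subunit, was at 12578, 13576, 15860, 14100 and 20326 normalized counts in WT and at 14609, 11458, 12406, 5323 and 14101 in *Mgp*-KO (-0.46 ± 0.28, SE, adjusted p = 0.381). *Uqcrfs1*, the Rieske iron-sulfur protein, was at 7253, 9332, 10938, 21630 and 21226 in WT and at 9710, 7319, 8649, 7184 and 16545 in *Mgp*-KO (-0.44 ± 0.26, adjusted p = 0.372). *Cyc1*, the cytochrome c1 that hands electrons to cytochrome c, was at -0.16 ± 0.24 (adjusted p = 0.737). *Uqcr10* and *Uqcr11*, small subunits, were at -0.29 and -0.03. The median over the complex was -0.09 in replicates 1 to 3 and -0.54 in replicates 4 and 5, and the WT and *Mgp*-KO values of these genes overlapped over the 10 libraries.

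Complex IV, cytochrome c oxidase, had a median of -0.19 with the set term, 11 of its 13 subunits were below 0, and 0 were called. The median was -0.06 without *Mgp*-KO 4 and -0.12 without WT 4, with 9 below 0 in both. *Cox6a1*, a small subunit at the dimer interface, had the lowest adjusted p of the 59 genes. It was at 14116, 14898, 19539, 21001 and 16721 normalized counts in WT and at 15969, 11546, 13336, 7587 and 13852 in *Mgp*-KO (-0.50 ± 0.23, SE, adjusted p = 0.261), and the genotypes overlapped. *Cox4i1*, the largest nuclear subunit and a common loading standard for mitochondria, was at 19043, 18472, 23828, 41402 and 31435 in WT and at 27285, 21814, 22232, 20921 and 40942 in *Mgp*-KO (0.01 ± 0.24, adjusted p = 0.983). *Cox5b* (-0.03 ± 0.17, adjusted p = 0.930) and *Cox6c* (-0.15 ± 0.17, adjusted p = 0.650) were close to 0 as well.

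The subunits of a library tended to lie on the same side of the WT mean, whichever complex they belong to. Relative to the WT mean of the same set, 57, 55 and 2 of the 59 genes were lower in WT 1, WT 2 and WT 3, and 13 and 46 in WT 4 and WT 5. The WT counts are partly fixed in advance, because each WT library is part of the mean it is set against. WT 4 and WT 5 must mirror each other, and a high WT 3 places WT 1 and WT 2 lower. Among *Mgp*-KO libraries 5, 53 and 39 genes were lower in replicates 1 to 3, and 49 and 28 in replicates 4 and 5. The median deviation was 0.22 (log2) in WT 3 and 0.21 in *Mgp*-KO 1, and -0.25 in *Mgp*-KO 2, while the median over all tested genes stayed between -0.01 and 0.03 in every library. The 59 genes therefore do not count as 59 separate observations of the genotype, and the share of negative values carries no error of its own. Together they took 2.11% to 3.79% of the reads of a library, with the lowest share in *Mgp*-KO 2 and the highest in WT 4.

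**Figure D2:**
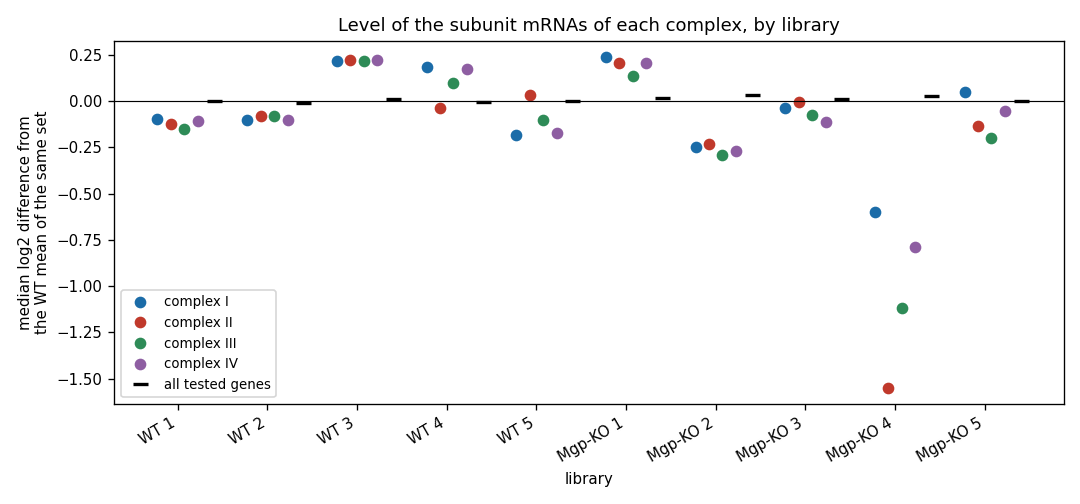
Median log2 difference of the subunit mRNAs of each complex from the WT mean of the same set (replicates 1 to 3, or 4 and 5), by library, with the median of all tested genes as a black bar. The 4 complexes move together within most libraries, and *Mgp*-KO 4 lies lowest, at -0.60 for complex I and -1.55 for complex II. WT 4 and WT 5 mirror each other because the mean of their set is their own.

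*Mgp*-KO 4 stood apart from the other libraries for the respiratory chain. It was the lowest of the 4 libraries of its set in 44 of the 59 genes, where 34.4% of all tested genes (4713) were lowest in it. Its median deviation was -0.60 for complex I, -1.55 for complex II, -1.12 for complex III and -0.79 for complex IV. *Sdhd*, a membrane anchor of complex II chosen here after its values were seen, was at 3233 normalized counts against 13951 and 15039 in WT 4 and WT 5 and 11993 in *Mgp*-KO 5. Some complex I subunits went the other way, among them *Ndufb2*, also chosen after its values were seen, which was 0.68 above the WT mean of the set on the log2 scale, and *Ndufb7*, which was 0.41 above it. *Mgp*-KO 5 had a median deviation of 0.01.

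The same library also held the highest share of mitochondrial rRNA, 16.7% of its reads against 0.771% to 8.57% in the others, and the fewest reads on genes. The summed level of 5 erythroid markers was 101447 normalized counts, against 3009 to 26397 in the other libraries, and that of 10 endothelial markers 62170 against 19922 to 33680. Their part in the low subunit values was not tested. Without *Mgp*-KO 4 the median log2 fold change with the set term was -0.05 with 35 genes below 0, and without WT 4 it was -0.09. Without *Mgp*-KO 1 or *Mgp*-KO 5 the median was -0.26, without WT 2 it was -0.22, and 0 of the 59 genes were called with any 1 library left out. In replicates 1 to 3 the median turned to 0.07 without WT 3 and to 0.06 without *Mgp*-KO 2, and in replicates 4 and 5 it was 0.01 without *Mgp*-KO 4 and -0.71 without *Mgp*-KO 5.

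Pairs of complex IV genes (3 of them here) encode alternative forms of the same subunit, and their ratio within a library does not depend on how the library was scaled. The log2 ratio of *Cox6a2* to *Cox6a1* is an exception, because 1 was added to each normalized count and *Cox6a2* had few or 0 reads in several libraries. *Cox6a2*, *Cox7a1* and *Cox8b* are the forms of heart and muscle, and all lie on chromosome 7 of the mm10 genome (GENCODE), *Cox6a2* at chr7:128205435-128206387 on the minus strand, *Cox7a1* at chr7:30184144-30186078 on the plus strand and *Cox8b* at chr7:140898945-140900446 on the minus strand. The widely expressed forms lie elsewhere, *Cox6a1* at chr5:115345642-115348981, *Cox7a2* at chr9:79755361-79759878 and *Cox8a* at chr19:7215153-7217616, all on the minus strand. In WT replicates 1 to 3, *Cox8b* had the highest level of the 59 genes per kilobase of principal transcript, 37293 normalized counts per kilobase, followed by *Cox6a1* (28344) and *Cox4i1* (27446), beside a median of 6019. In WT replicates 4 and 5 the order was *Cox4i1* (48884), *Cox8b* (47764), *Cox6b1* (39558) and *Cox6a1* (33032). *Cox6a2* was the lowest in both, at 18.7.

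The promoters below, from the RefSeq table of GRCm38.p6 (the mm10 build), run from 250 bases before to 50 bases after the transcript start. *Cox6a1* is shown as the subunit with the lowest adjusted p between genotypes, *Sdha* as the catalytic subunit of complex II, and *Cox8a* and *Cox8b* as an isoform pair whose motif matches differ. NRF1 and the ETS factor GABPA are known as activators of many respiratory chain genes. Capitals mark matches on either strand to GCGCANGCG (the NRF1 motif), CCGGAAG (ETS) and AAGGTCA or TCAAGGTCA (the estrogen-related receptor, ERR). *Cox6a1* (chr5:115348909-115349208, minus strand) holds NRF1 and ETS matches, *Sdha* (chr13:74350191-74350490, minus strand) 3 NRF1 matches, *Cox8a* (chr19:7217567-7217866, minus strand) 2 ETS matches, and *Cox8b* (chr7:140900397-140900696, minus strand) no match to these motifs. *Cox7a1* and *Cox7a2* held no match either. The table had no promoter for *Cox6a2*, which was therefore not searched.
Cox6a1: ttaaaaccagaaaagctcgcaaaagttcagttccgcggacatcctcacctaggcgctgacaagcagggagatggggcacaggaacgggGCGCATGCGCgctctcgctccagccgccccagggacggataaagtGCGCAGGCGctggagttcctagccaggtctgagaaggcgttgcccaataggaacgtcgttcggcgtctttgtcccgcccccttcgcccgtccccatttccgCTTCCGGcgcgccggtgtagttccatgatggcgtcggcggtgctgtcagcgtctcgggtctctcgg
Sdha: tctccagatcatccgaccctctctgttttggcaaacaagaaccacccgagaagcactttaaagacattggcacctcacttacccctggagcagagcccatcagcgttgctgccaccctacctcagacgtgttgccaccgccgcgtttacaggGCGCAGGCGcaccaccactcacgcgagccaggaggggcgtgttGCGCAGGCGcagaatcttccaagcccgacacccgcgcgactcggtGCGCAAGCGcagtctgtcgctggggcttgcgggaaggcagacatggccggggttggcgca
Cox8a: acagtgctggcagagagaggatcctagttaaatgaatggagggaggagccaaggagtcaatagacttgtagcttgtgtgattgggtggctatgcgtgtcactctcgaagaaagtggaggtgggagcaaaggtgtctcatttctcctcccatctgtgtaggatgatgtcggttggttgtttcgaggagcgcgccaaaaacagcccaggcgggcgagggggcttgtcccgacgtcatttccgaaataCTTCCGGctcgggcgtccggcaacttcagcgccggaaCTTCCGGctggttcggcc
Cox8b: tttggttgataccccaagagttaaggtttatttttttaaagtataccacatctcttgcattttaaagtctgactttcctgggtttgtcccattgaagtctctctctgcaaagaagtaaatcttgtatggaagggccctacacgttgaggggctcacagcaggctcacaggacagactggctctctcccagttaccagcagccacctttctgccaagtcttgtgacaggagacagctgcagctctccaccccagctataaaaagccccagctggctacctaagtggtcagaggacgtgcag
The table held 50 promoters for 48 of the 59 genes. The NRF1 motif was in 28.0% of these 50 promoters and in 6.25% of all 32851 promoters of the table, by complex in 9 of 32 for complex I, 2 of 3 for complex II, 2 of 5 for complex III and 1 of 10 for complex IV. The ETS motif was in 22.0% beside 8.86%, AAGGTCA in 8% beside 4.72%, TCAAGGTCA (which holds AAGGTCA) in 2% beside 0.423%, the YY1 motif AAGATGGCG in 8% beside 1.40%, and the cAMP response element TGACGTCA in 8% beside 1.79%. The E-box CANNTG was in 68.0% beside 72.3%, and the MEF2 motif CTAAAAATA in 0% beside 0.517%. These are matches of letters in a window, and no binding was measured in these libraries.

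*Cox6a2* was near the limit of detection in most libraries. It was at 0.715, 0, 37.5, 2.93 and 22.5 normalized counts in WT 1 to 5 and at 1.51, 200, 0, 4.86 and 224 in *Mgp*-KO 1 to 5, where 3 reads, the limit that a count of 0 allows, correspond to between 2.15 and 5.19 normalized counts. *Mgp*-KO 2 and *Mgp*-KO 5 were far above the rest, and each was in a different set. The summed level of 20 skeletal muscle markers was 826, 833, 9813, 3276 and 7799 normalized counts in WT and 716, 59477, 792, 1781 and 54529 in *Mgp*-KO, so that the 4 libraries with the highest *Cox6a2* were also those with the highest muscle sum. The difference between genotypes was 1.35 ± 1.58 (SE, log2, adjusted p = 0.658, limma with the set term).

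**Figure D3:**
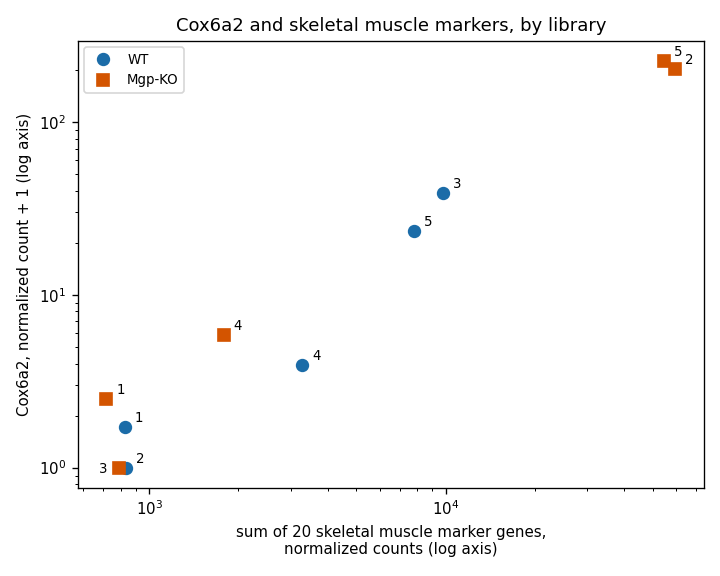
*Cox6a2* (normalized count plus 1, log axis) against the summed normalized counts of 20 skeletal muscle markers (log axis) in each library, numbered by replicate. *Mgp*-KO 2 and *Mgp*-KO 5 hold both the highest *Cox6a2*, 200 and 224 normalized counts, and the highest muscle sums.

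*Cox7a1* was at 4559, 4403, 5778, 9516 and 7484 normalized counts in WT and at 5870, 2644, 4392, 4212 and 8252 in *Mgp*-KO. *Cox7a2* was at 4119, 4148, 5183, 12990 and 9656 in WT and at 4920, 3575, 3924, 7301 and 9907 in *Mgp*-KO. The genotypes overlapped for both, with log2 fold changes of -0.36 ± 0.25 and -0.23 ± 0.17 (SE, adjusted p = 0.440 and 0.473, limma with the set term). The ratio of *Cox7a1* to *Cox7a2* was 1.11, 1.06, 1.11, 0.733 and 0.775 in WT and 1.19, 0.739, 1.12, 0.577 and 0.833 in *Mgp*-KO. It was above 1 in 5 of the 6 libraries of replicates 1 to 3 and below 1 in all 4 of replicates 4 and 5.

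*Cox8b* was at 13120, 12103, 15054, 20595 and 13795 normalized counts in WT and at 16702, 9960, 14213, 14381 and 19159 in *Mgp*-KO. *Cox8a* was at 9371, 9611, 12002, 6603 and 5560 in WT and at 11856, 8520, 9675, 1978 and 5706 in *Mgp*-KO. The log2 fold changes were -0.01 ± 0.20 and -0.37 ± 0.28 (SE, adjusted p = 0.978 and 0.484). The ratio of *Cox8b* to *Cox8a* was 1.40, 1.26, 1.25, 3.12 and 2.48 in WT and 1.41, 1.17, 1.47, 7.27 and 3.36 in *Mgp*-KO, with the highest value in *Mgp*-KO 4 and no overlap between the 2 sets.

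**Figure D4:**
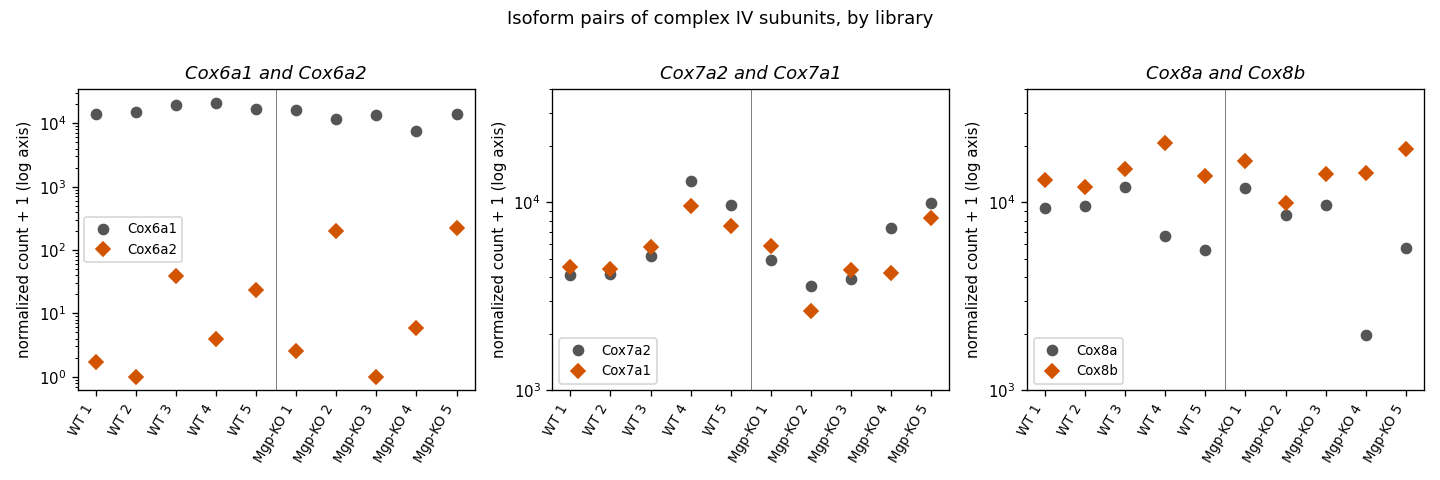
Normalized counts plus 1 (log axes) of the widely expressed form (circles) and the form of contractile tissue (diamonds) of 3 complex IV subunits in each library. *Cox6a2* spans from 0 to 224 normalized counts while *Cox6a1* stays within 7587 to 21001, and *Cox8a* is lower in replicates 4 and 5 of both genotypes.

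None of the 3 isoform ratios differed between genotypes beyond the spread between libraries. The mean log2 ratio in WT and *Mgp*-KO (± SD, n = 5 and 5) was -0.09 ± 0.30 and -0.22 ± 0.43 for *Cox7a1* to *Cox7a2* (two-sided exact permutation test, p = 0.659), 0.82 ± 0.61 and 1.18 ± 1.11 for *Cox8b* to *Cox8a* (p = 0.484, exact), and -11.5 ± 2.18 and -9.69 ± 3.68 for *Cox6a2* to *Cox6a1* (p = 0.389, exact), each with an adjusted p of 0.659 over the 3 ratios. Within replicates 1 to 3 the differences in log2 ratio were -0.14, 0.04 and 1.23 in the same order, with exact permutation p-values of 1, 0.800 and 0.600, where the smallest that this design allows is 0.100. Within replicates 4 and 5 they were -0.12, 0.83 and 2.79 (exact p = 1, 0.333 and 0.667, with a smallest possible p of 0.333). Without *Mgp*-KO 4 the differences for *Cox7a1* to *Cox7a2* and *Cox8b* to *Cox8a* were 0.01 and -0.06. Without *Mgp*-KO 2 and without *Mgp*-KO 5 that of *Cox6a2* to *Cox6a1* was 0.89 and 0.91.

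Between the sets the ratios did differ. *Cox7a1* to *Cox7a2* was 0.53 lower on the log2 scale in replicates 4 and 5 (a log2 difference of -0.53, two-sided exact permutation test over 4 and 6 libraries, p = 0.019, adjusted p = 0.029), and *Cox8b* to *Cox8a* was 1.49 higher (p = 0.0048, adjusted p = 0.014, exact). For *Cox6a2* to *Cox6a1* the difference was 1.80 (p = 0.367, exact).

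The sets differed in the subunit mRNAs more than the genotypes did. With genotype in the model, 24 of the 59 genes differed between replicates 4 and 5 and replicates 1 to 3, a share near the 38.2% of all tested genes (5243) that did. Of these, 21 were higher in replicates 4 and 5, where 18.3% of all tested genes were higher (2509), and 3 were lower, where 19.9% of all were lower (2734). The median log2 difference was 0.40 over the subunits and -0.02 over all tested genes. The direction of the calls depended on the scaling, with 12 higher and 10 lower at equal upper quartiles, which moved the median of all genes to -0.20, and 27 higher and 5 lower with DESeq2, where the median of all genes was 0.18. Without *Mgp*-KO 4, 38 of the subunit genes were called, 35 of them higher. The share of all tested genes called under these alternatives is not given here. Their counts are therefore not read as particular to the subunits.

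By complex, 12 subunits of complex I were higher in replicates 4 and 5 and 1 lower, 5 of complex III were higher, 4 of complex IV were higher and 2 lower, and 0 of 4 in complex II were called. The distal membrane arm of complex I, which holds proton-pumping modules, had 6 of 10 higher. *Ndufa5* was higher by 1.43 ± 0.14 (SE, log2, adjusted p = 5.5e-05), *Ndufa1* by 1.29 ± 0.16 (adjusted p = 0.00021), *Cox6c* by 1.20 ± 0.17 (adjusted p = 0.00047), *Cox7a2* by 1.19 ± 0.17 (adjusted p = 0.00051) and *Uqcr11* by 1.13 ± 0.19 (adjusted p = 0.0011), all in limma. *Cox8a* (-1.16 ± 0.29, adjusted p = 0.0086), *Ndufs3* (-1.16 ± 0.32, adjusted p = 0.015) and *Cox7c* were the 3 that were lower. For each of these genes, which are all among those called, the libraries of the 2 sets did not overlap. In all, the sets did not overlap for 15 of the 59 subunits. The share of all tested genes without overlap between the sets is not given here.

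The subunits with the most extreme differences were singled out after their values were seen. *Ndufb4*, of the distal arm, was at 88.7 to 122 normalized counts in the 6 libraries of replicates 1 to 3 and at 671 to 1275 in the 4 of replicates 4 and 5, a log2 difference of 3.17 ± 0.19 (SE, adjusted p = 2.3e-06). *Cox7c*, a small subunit of complex IV, was at 614 to 758 in the former and at 129 to 191 in the latter (-2.07 ± 0.14, adjusted p = 9.0e-06). Both share sequence with other genes. Of the 50-base words of the *Ndufb4* transcript, which have the length of a read, 37.0% also occur in *Ndufb4c*, *Gm16056* or *Gm20519*, and 53.0% of those of *Cox7c* occur in *Gm10012*, *Gm12338* or *Gm20091*. Their counts are therefore uncertain, as are those of *Uqcrb* (43.4% shared), *Ndufs5* (41.2%), *Ndufs3* (39.7%), *Ndufb6* (34.1%) and *Ndufb2* (33.5%), which together with them hold the 7 highest shares. In all 22 of the 59 genes share over 10% of their words, and 28 share none.

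Shorter transcripts showed the larger increase in replicates 4 and 5, in a comparison chosen after the data were seen. The median log2 difference was 0.65 for the 26 genes whose principal transcript is under 700 bases, with 14 higher and 2 lower, 0.44 for the 16 of at least 700 and under 1200 bases, with 5 higher and 1 lower, and 0.08 for the 16 of 1200 bases or more, with 2 higher and 0 lower. Across the 58 genes other than *Cox6a2*, Spearman's rho between transcript length and the difference was -0.339 and Pearson's r with log2 length -0.235, as a description across genes of the same 10 libraries. The share of words in common with other genes had a rho of 0.051 with the difference and of 0.215 with its size regardless of sign. The sets also differ in depth and in mitochondrial rRNA, as given above, and the part of either in these differences was not tested.

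**Figure D5:**
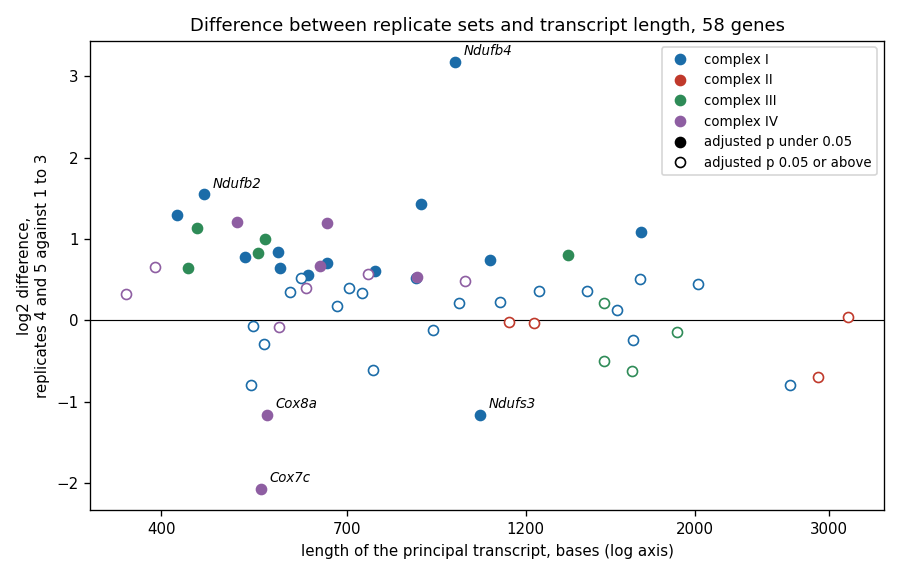
Log2 difference between replicates 4 and 5 and replicates 1 to 3 against the length of the principal transcript (bases, log axis) for 58 subunit genes, coloured by complex and filled where the adjusted p is under 0.05. Most filled points are short and above 0, with *Ndufb4* at 3.17 and *Cox7c* at -2.07 as the extremes.

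The other lists of the pathway held no call for genotype in limma and few in DESeq2. With the set term 0 of 10 tested subunits outside the 59 were called, 0 of 19 subunits of the ATP synthase (complex V, median -0.14), 0 of 8 mitochondrially encoded mRNAs (median 0.21) and 0 of 11 regulators (median 0.02). The median of the mitochondrially encoded mRNAs was 0.47 in replicates 1 to 3 and -0.61 in replicates 4 and 5, and that of the regulators 0.13 and -0.28, so that both turned sign between the sets. At an unadjusted p under 0.05 with the set term the 4 lists held 3, 0, 1 and 2 genes. With edgeR 0 genes of these lists were called, and with DESeq2 *Higd1a*, a complex IV partner protein, was called lower and *mt-Nd6*, a complex I subunit read from the other strand of the mitochondrial genome than its neighbours, higher. Both are named after these calls were seen, and the count of *mt-Nd6* is uncertain without a stated strand setting. Assembly factors, which build the complexes without remaining in them, also had 0 of 48 called, but 16 had an unadjusted p under 0.05 (beside the 19.3% of all tested genes given above), 40 were below 0, the median was -0.35 and the lowest adjusted p was 0.058. With edgeR 0 assembly factors were called and with DESeq2 5 of 48 fell, where 4.29% of all tested genes fell (589) and 8.06% were called in either direction (1106). These were *Ndufaf7* and *Nubpl* of complex I and *Coa3*, *Cox15* and *Sco1* of complex IV, also named after the calls were seen. The median of the 48 was -0.22 in replicates 1 to 3, with 40 below 0. There 11 had an unadjusted p under 0.05, a share near the 22% of all tested genes that did (3016).

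Among the single genes followed, *Cycs*, the cytochrome c that carries electrons from complex III to complex IV, was at -0.09 (adjusted p = 0.773) between genotypes but 3.45 higher in replicates 4 and 5, and 28.5% of its words are shared with 76 other genes. *Ppargc1a*, the coactivator of mitochondrial biogenesis, was at -0.16 (adjusted p = 0.826), *Nrf1* at 0.46 (adjusted p = 0.154) and *Tfam*, which maintains mitochondrial DNA, at -0.35 (adjusted p = 0.404). *Cox4i2*, a form of subunit 4 linked to low oxygen, was at -0.07 (adjusted p = 0.885) and *Cox7a2l*, which takes part in supercomplexes of III and IV, at 0.34 (adjusted p = 0.255). None of these 6 genes passed the threshold in limma with the set term.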

How the data were processed

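Total RNA from whole iBAT of 5 WT and 5 *Mgp*-KO mice was sequenced with single reads of 50 bases. Per the study's methods, the authors mapped reads to mm10 with STAR, counted them on genes and divided each library by its size factor from DESeq2. The deposited signal is therefore a normalized count per gene, and library depth came from the smallest step of each library: all values were whole multiples of 1 read (largest deviation 0.00181 reads). The strand setting of the counting is not given in the sources used here, so overlapping genes can share reads. Floors and reads cover counting error only.

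Genes with a mean of at least 10 normalized counts (13714 of 27267) were tested on log2(normalized count + 1) with limma 3.58.1 in R 4.3.3 (lmFit, eBayes with a mean-variance trend), and p-values were adjusted by Benjamini-Hochberg over all of them, with a threshold of 0.05. A fold change on this scale understates the change of low genes. Fits used all 10 libraries with and without a set term, each set alone, the set itself and the interaction. The labels give separate mice, and p-values measure the spread between these libraries. Isoform ratios were compared by two-sided exact permutation tests. Recovered reads were also tested with edgeR 4.0.16 (TMM) and DESeq2 1.42.0, and further alternatives were other pseudocounts (0.5 and 10), filters, scalings, a replicate block and each library left out. The limma fits were tested on simulated data. The changed genes there differed by more than any subunit did between genotypes, and the genotype simulations held no difference between the sets. That check gives no measure of how often differences of the size seen in the subunits would be called.

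The 59 genes, the lists and the tests were chosen with earlier results of these data known. Values per library are given for the 6 isoform genes, the extremes of each complex with the set term, the lowest adjusted p-values and fixed landmarks of each complex; genes named outside this rule are said to be so. Transcript lengths and 50-base words come from the principal transcript of each gene in the GENCODE annotation of GRCm38, and words were compared with all other annotated transcripts. The protein identity of the isoforms was not analysed here.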

Additional observations from a re-analysis of the deposited data

Results flagged for a closer look

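Of 60 groups of 5 libraries examined, chance alone gives about 1 in 20 in which the highest or lowest library stands far from the nearest of the others, and 3 did. In WT, *Ndufb7*, a subunit of the distal arm of complex I, was highest in WT 4 at 4180 normalized counts, where the next library was at 3049, a gap of 0.742 of the range. *Ndufs1* was lowest in WT 4 at 5862, where the next was at 9493, a gap of 0.751 of the range. In *Mgp*-KO, *Uqcrfs1* was highest in *Mgp*-KO 5 at 16545, where the next was at 9710, a gap of 0.730 of the range. All 3 libraries belong to replicates 4 and 5, which are the smaller part of each group of 5.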

How the results depend on the processing

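No subunit was called between genotypes in any of the alternatives run, 23 of them for all 10 libraries without a set term. Of 620 values of the 27 named subunits under alternatives, 44 had the other sign than reported and 0 passed the threshold. The median log2 fold change with 1 library left out ran from -0.326 to -0.0536 over all 10 libraries, from -0.262 to -0.0495 with the set term, from -0.160 to 0.0660 in replicates 1 to 3 and from -0.715 to 0.00620 in replicates 4 and 5. Between the sets 24 subunits were called and 16 to 38 with 1 library left out, with 38 without *Mgp*-KO 4. The share of all tested genes called between the sets with 1 library left out is not given here. The genotype difference of the *Cox7a1* to *Cox7a2* ratio ran from -0.247 to 0.015 with 1 library left out and was 0.079 without *Mgp*-KO 4 and 5, and that of *Cox8b* to *Cox8a* ran from -0.0639 to 0.595 and was -0.395 without them. The causes were not tested.

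The number of all genes called depended on the fit. Over all 10 libraries it was 9 with limma, 3 with edgeR, 374 with DESeq2, 1 without a filter, 8 to 29 with other pseudocounts, 15 with a mean of at least 50, 25 and 34 with other scalings, 0 to 93 with 1 library left out and 267 without *Mgp*-KO 4 and 5. With the set term it was 324, 341 with edgeR, 1152 with DESeq2 (fitted over all 27267 genes, as in its other counts here) and 56 to 678 with 1 library left out. In replicates 1 to 3 it was 486, 448 with edgeR, 1348 with DESeq2, 127 without a filter and 26 to 811 with 1 library left out, and in replicates 4 and 5 it was 0, with 50 in DESeq2.

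Replicate numbers were not taken to pair the libraries. Deviations of same-numbered libraries correlated with 0.527, 0.056, 0.327, 0.523 and 0.514, with a mean of 0.390 beside 0.416 for other numbers of the same set. With a block for the number, 0 of the 59 subunits were called, while 270 genes in all were called with limma, 222 with edgeR and 921 with DESeq2, and 265 in replicates 1 to 3. With that block 4 subunits had an unadjusted p under 0.05 with DESeq2. The share of all tested genes at that p is not given here. For the ratios the block gave exact p-values of 0.438 for *Cox6a2* to *Cox6a1*, 0.5 for *Cox7a1* to *Cox7a2* and 0.188 for *Cox8b* to *Cox8a*, where the smallest possible is 0.0625.

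With the set term the median width of an interval on either side was about 0.44 on the log2 scale, and in replicates 4 and 5 it was 1.13. For a typical subunit, a genotype difference under this width could not be told from 0 here. The intervals are not adjusted for the number of genes tested. Larger differences were not called either, as for *Cox6a1* at -0.50 (adjusted p = 0.261, limma with the set term).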
